A study of Mus musculus with 9 samples.

Results

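The comparison of 3 arrays labelled 10 mg/kg methylphenidate (MPH) with 3 saline arrays is described here across all genes of the substantia nigra. The arrays were chosen by their treatment label alone, and these 6 are part of a set of 9, in which 3 further arrays are labelled 1 mg/kg MPH. All came from outbred Swiss Webster mice with no transgene, which were injected intraperitoneally with saline or with MPH at 1 or 10 mg/kg, once daily on school days for 3 months, from the end of the fourth week of life. After a drug washout of about a week, the substantia nigra was dissected by its position in the brain, without sorting of cells, and its RNA was measured on the Affymetrix array HT MG-430 PM, where a group of short probes (a probe set) measures each transcript. The question of the comparison is which mRNAs of the substantia nigra differ from saline after chronic high dose MPH. The labels do not say whether each array stands for 1 mouse or for pooled mice, so p-values measure only the spread between these arrays.

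The substantia nigra holds the dopamine neurons that project to the striatum, whose loss underlies the motor signs of Parkinson's disease. These neurons make dopamine with tyrosine hydroxylase and aromatic amino acid decarboxylase, and take released dopamine back up through the dopamine transporter, the protein that MPH blocks. The dissected tissue also holds GABA neurons, astrocytes, microglia and the oligodendrocytes of passing fibers, and it borders on the thalamus, the hypothalamus and the raphe. In bulk tissue, fewer cells of a type and less RNA per cell cannot be told apart.

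All 45037 probe sets that are not array controls entered the analysis with no filter on low values, and 28898 of them name a single gene (17097 genes). On the log2 scale, array medians ranged from 4.49 to 4.53. Among 17 control probe sets without a matching transcript the median was 3.03 and the highest value 3.58, and genes in this range are called near background. The groups are called by their deposited labels. The study's own gene lists carry the opposite dose labels: the differences of the arrays labelled 10 mg/kg stand in the list for 1 mg/kg in 76 of 76 entries that could be matched to a probe set (tolerance 0.0005), and those of the arrays labelled 1 mg/kg in the list for 10 mg/kg in 36 of 36. The values do not show which assignment is right.

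Replicate 1 of the arrays labelled 10 mg/kg stood apart from the other arrays. Its root mean square distance from the median of the other 8 was 0.2362 on the log2 scale, compared with 0.1309 to 0.1991 for the others, and the main results below are therefore given with and without it. The deviations of this array were mirrored in the other arrays that carry the number 1. Over 45037 probe sets, its deviation from the mean of the other two arrays of its label had a correlation of -0.6256 with the same deviation of saline 1. Of 255 probe sets more than 1 log2 unit higher in it, 96.9% were lower in saline 1 than in the other two saline arrays, with a median deviation of -0.54. Replicate 1 of the arrays labelled 1 mg/kg was likewise lower than the rest of its group in 98.4% of these probe sets (correlation -0.5382). In the deposited values the means of the replicate numbers had been brought together, as described under processing. Deviations of same-numbered arrays therefore offset each other, and the mirroring is not a separate observation on saline 1. Leaving out replicate 1 alone thus keeps a saline array with deviations of the opposite sign, and values without all 3 arrays numbered 1 are added where they differ. Differences without replicate 1 come from the same model with the replicate number as a block, so they can depart from the difference of the plain means.

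No probe set passed the test of the arrays labelled 10 mg/kg against saline. In limma's linear model with the replicate number as a block, 0 of 45037 probe sets reached an adjusted p of 0.05 (Benjamini-Hochberg, smallest adjusted p = 0.1416), 0 did so without replicate 1, and 0 to 1 did so when each other array was left out (the probe set of Inpp4a without saline 2). An unadjusted p of 0.05 or less was reached by 4318 probe sets (9.59%), of which 1837 were higher (4.08%) while 2481 were lower (5.51%). Without replicate 1 these were 3640 (8.08%), 1574 higher (3.49%) and 2066 lower (4.59%). Without the block, limma called 115 probe sets (0.255%), 46 higher (0.102%) and 69 lower (0.153%). Those 115 calls rested on every array: 0 or 1 were made in that fit after any 1 of the 6 arrays was left out. All 115 kept their sign without replicate 1, but they had been picked on these same arrays. The differences below are therefore given as levels and as the order of the arrays, beside how often that order arose over all probe sets. The 3 arrays labelled 10 mg/kg lay above all 3 saline arrays in 4634 probe sets (10.3%) and below them in 5910 (13.1%), 23.4% in all. Counted once per gene, by its brightest probe set, 8.75% of 17097 genes lay above and 15.8% below, while 3.28% were higher and 6.95% lower by an unadjusted p of at most 0.05. Without replicate 1 the latter shares were 2.83% and 5.98%. The mean was higher than saline in 42.4% of genes and lower in 54.6%.

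Genes of dopamine neurons had lower levels under the 10 mg/kg label. Of 31 measured markers of these neurons, 28 had a lower mean than saline (54.6% of all genes). Of the 31, 16 lay below saline in every array (15.8%). By an unadjusted p of at most 0.05, 18 were lower (6.95%) and none higher. The median difference was -0.35 on the log2 scale, compared with -0.02 over all genes. Without replicate 1 it was -0.31, with 25 of the 31 lower, 16 of these with an unadjusted p of at most 0.05 (5.98% of all genes). Relative to saline, the mean of the 31 markers was -0.35, -0.34 and -0.30 in replicates 1, 2 and 3 of the label. In the saline arrays it was -0.03, 0.10 and -0.06. The array that stood apart thus lay beside its group in this list. Control probe sets for RNA quality and for the labelled amount, given further on, also set all 3 arrays apart from saline, and their part was not tested. Some of these markers are in lists that the study chose on these arrays, so their direction is not independent evidence.

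The promoters of Th and Gch1, which encode the first enzyme of dopamine synthesis and the enzyme that makes its cofactor, and of Fos, described further on, are shown because genes of dopamine synthesis lay below saline and activity-dependent genes above it. The 150 bases before each start site are given 5′ to 3′ on the gene's strand, from RefSeq sequence of build GRCm38.p6, for Th (chr7:142899996-142900145, minus strand), Gch1 (chr14:47189414-47189563, minus strand) and Fos (chr12:85473740-85473889, plus strand). Capitals mark the core of the cyclic AMP response element, TGACG on either strand, and in Th the full palindrome TGACGTCA, which holds the core on both strands.
Th: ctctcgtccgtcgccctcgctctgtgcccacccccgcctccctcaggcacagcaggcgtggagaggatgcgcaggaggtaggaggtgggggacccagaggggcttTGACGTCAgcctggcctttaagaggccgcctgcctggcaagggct
Gch1: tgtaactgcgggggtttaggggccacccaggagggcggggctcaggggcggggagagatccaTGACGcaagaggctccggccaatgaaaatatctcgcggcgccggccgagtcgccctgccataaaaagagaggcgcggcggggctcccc
Fos: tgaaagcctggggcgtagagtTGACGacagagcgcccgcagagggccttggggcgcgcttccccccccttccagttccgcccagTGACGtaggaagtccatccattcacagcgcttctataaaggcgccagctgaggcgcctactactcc
The core stood in 13.3% of 32851 RefSeq promoter windows of this length and the palindrome in 1.36%. The match is a description of the sequence and was not tested against the expression values, and the core stands both in genes that were lower and in one that was higher.

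Among the enzymes, Th had log2 values of 11.18, 11.13 and 10.99 in the saline arrays and 10.45, 10.63 and 10.51 under the 10 mg/kg label. Every array of the label lay below every saline array, and the difference was -0.57 (SE 0.09; adjusted p = 0.3289 by limma, and 0.04147 without the block). Without replicate 1 the difference of Th was -0.54. Gch1 read 6.97, 7.09 and 7.05 in saline and 6.33, 6.49 and 6.45 under the 10 mg/kg label, a difference of -0.61 and, without replicate 1, -0.62. A second, brighter probe set of Gch1 differed by -0.40 and lay below saline in every array as well. Ddc, the decarboxylase that forms dopamine, differed by -0.38 on its brighter probe set (-0.33 without replicate 1), while its dimmer probe set had the opposite sign.

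The transporters and receptors of these neurons lay on the same side. Slc6a3, the dopamine transporter, read 12.09, 12.08 and 11.90 in saline and 11.63, 11.76 and 11.86 under the 10 mg/kg label. The groups did not overlap, but replicate 3 lay close to the lowest saline array, and the difference of -0.27 became -0.19 without replicate 1. Drd2, the inhibitory dopamine receptor that these neurons carry themselves, read 8.29, 8.26 and 8.35 against 7.83, 7.89 and 7.78, a difference of -0.46 (-0.50 without replicate 1). Slc10a4, a transporter-like protein of monoamine vesicles, differed by -0.55 with and without replicate 1. Ret, the signalling receptor for Gdnf, differed by -0.65, and by -0.49 without replicate 1.

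Sncg, a relative of alpha-synuclein, read 8.98, 9.23 and 9.11 in saline and 8.58, 8.55 and 8.57 under the 10 mg/kg label. Its values under the label were nearly equal and lay below all saline arrays, at a difference of -0.54 (-0.59 without replicate 1). Gucy2c, a guanylyl cyclase receptor of midbrain dopamine neurons, had the largest difference of the 31 markers, with 5.69, 5.82 and 5.36 in saline against 4.70, 4.65 and 4.54, at -0.99 (-1.02 without replicate 1). Markers that did not separate included Kcnj6 at -0.01, Otx2 at 0.01 and Lmx1b at -0.01, a potassium channel and transcription factors of these neurons. Of the plotted genes, Th, Gch1, Drd2, Sncg, Chrna6, Slc10a4 and Gucy2c passed limma's test without the block (adjusted p = 0.04147 to 0.04616). None did so in that fit without replicate 1, where their adjusted p lay between 0.08978 and 0.117.

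**Figure D1:**
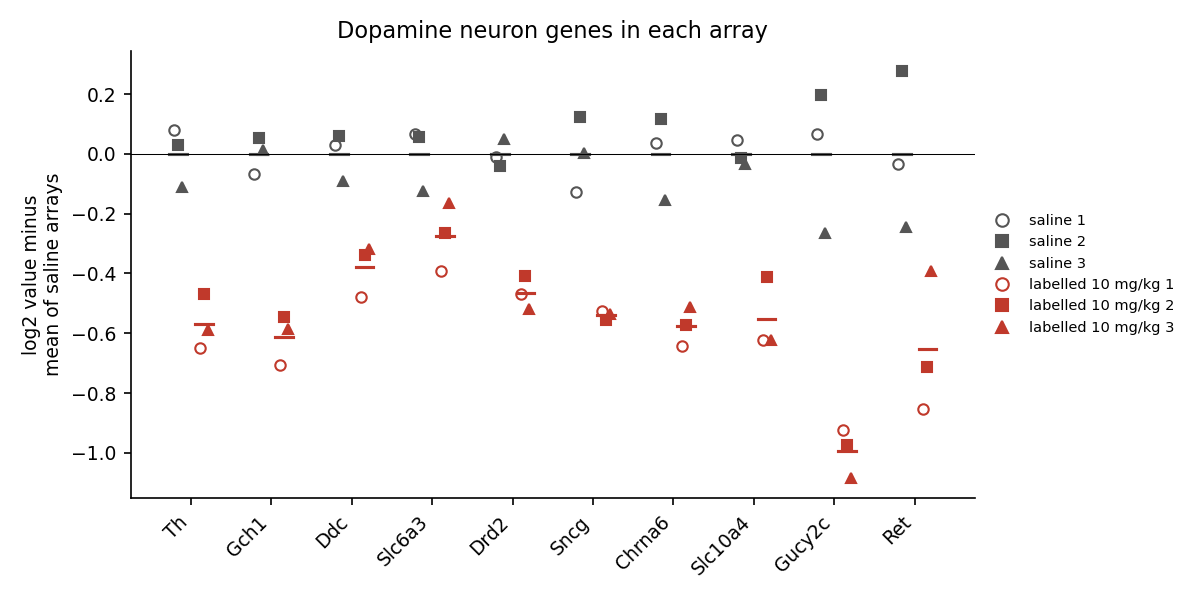
Log2 values of 10 genes of dopamine neurons in each array, relative to the mean of saline (vertical axis). Gray symbols are saline arrays and red symbols arrays labelled 10 mg/kg, open circles are the arrays numbered 1 and short bars are group means. For each gene, all 3 arrays of the label lie below all 3 saline arrays, by the most for Gucy2c (-0.99) and the least for Slc6a3 (-0.27).

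Subunits of the nicotinic acetylcholine receptor, through which acetylcholine excites dopamine neurons, differed by subunit. Of 9 measured, 7 had lower means, with a median of -0.34 (-0.20 without replicate 1, and -0.13 where each gene stood by the mean of its probe sets). Chrna6, the subunit restricted largely to catecholamine neurons, read 8.43, 8.51 and 8.24 in saline and 7.75, 7.82 and 7.88 under the 10 mg/kg label (-0.58, and -0.54 without replicate 1). Its partner Chrnb3 differed by -0.34 (-0.20 without replicate 1). Chrna4 differed by -0.50 on its brightest probe set, while its other 2 probe sets did not share that sign, and Chrna7, a subunit found on many neurons, differed by 0.06. Chrnb2, the common partner of Chrna4, lay above saline in every array, at 4.38, 4.44 and 4.22 against 4.12, 4.12 and 4.13 (0.22, and 0.18 without replicate 1), with its second probe set of opposite sign.

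Vesicle proteins, dopamine signalling and neurotrophic factors bear on the same neurons. Of 10 granins and prohormone enzymes, the proteins of dense-core vesicles, 8 had lower means with a median of -0.04, and without replicate 1 there were 9 with a median of -0.18. Of the 10, 2 lay below saline in every array (15.8% of all genes). They were Pcsk1n, an inhibitor of prohormone convertase (-0.26, and -0.27 without replicate 1), and Chga (chromogranin A). Chga read 10.08, 10.15 and 10.00 in saline and 9.56, 9.40 and 9.53 under the 10 mg/kg label (-0.58 with and without replicate 1). Of 8 genes of dopamine and noradrenaline signalling, 6 had lower means, at a median of -0.12 (0.01 without replicate 1). Ppp1r1b, which encodes the dopamine-regulated phosphatase inhibitor DARPP-32, read 6.12, 6.21 and 5.76 against 5.12, 5.31 and 5.41 (-0.75, and -0.58 without replicate 1). Penk, the enkephalin precursor and like Ppp1r1b abundant in the striatum, differed by -0.37 (-0.47 without replicate 1). Of 13 neurotrophic factors and receptors, 5 were higher and 7 lower with a median of -0.02. Without replicate 1, 8 were lower with a median of -0.07, and without the arrays numbered 1 the median was -0.13. Gdnf, a survival factor for dopamine neurons, differed by -0.22 but stood at background in all 6 arrays, between 2.94 and 3.27. Bdnf, a neurotrophin, read 6.54 to 7.11 in saline and 7.84, 6.78 and 6.79 under the 10 mg/kg label, so that its difference turned from 0.25 to -0.32 without replicate 1.

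Other genes with lower levels had varied functions. By the smallest p of the main model, the first was Tmem189 (plasmanylethanolamine desaturase, an enzyme of plasmalogen synthesis), with 6.60, 6.51 and 6.42 in saline and 5.93, 5.92 and 5.81 under the 10 mg/kg label. Its groups were well apart, with a difference of -0.62 (-0.59 without replicate 1; adjusted p = 0.3289 by limma and 0.04147 without the block). Lhfpl5, a membrane protein best known from the mechanotransduction complex of hair cells, differed by -0.72, Epha10, an ephrin receptor, by -0.52, and Epb41l1, a protein of the neuronal membrane skeleton, by -0.55. Racgap1, which acts in cell division, differed by -0.50 and Rcc2, a regulator of chromosome condensation and cell motility, by -0.54. Lgals3bp, a secreted protein induced by interferon, read 6.23, 6.14 and 6.01 in saline and 5.31, 5.60 and 5.31 in the arrays of the label (-0.72, and -0.61 without replicate 1). These 7 genes were chosen among those whose groups did not overlap, so lying below saline in every array was a condition of the choice. Without replicate 1 their differences lay between -0.48 and -0.70.

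Further genes below saline in every array included Pisd, which makes mitochondrial phosphatidylethanolamine (-0.77, with its 3 probe sets on the same side), in Chst8, a sulfotransferase (-0.68), and in Grik3, a kainate receptor subunit (-0.46). Sorcs3, a sorting receptor, differed by -0.81 and Ccdc91 by -0.80, each with a further probe set of opposite sign. Sdc3, a heparan sulfate proteoglycan, differed by -0.69, with only 1 of its 3 probe sets on that side. Without replicate 1 the differences of these 6 genes lay between -0.42 and -0.93. Inpp4a, a phosphoinositide phosphatase, read 9.81, 9.09 and 9.63 in saline and 7.43, 8.32 and 7.53 under the 10 mg/kg label. It differed by -1.75 (-1.62 without replicate 1) and passed limma's test with the block only when saline 2 was left out (-2.27, adjusted p = 0.01712). One probe set of Tia1, an RNA-binding protein, differed by -2.34, but only 2 of the 6 probe sets of Tia1 were lower.

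**Figure D2:**
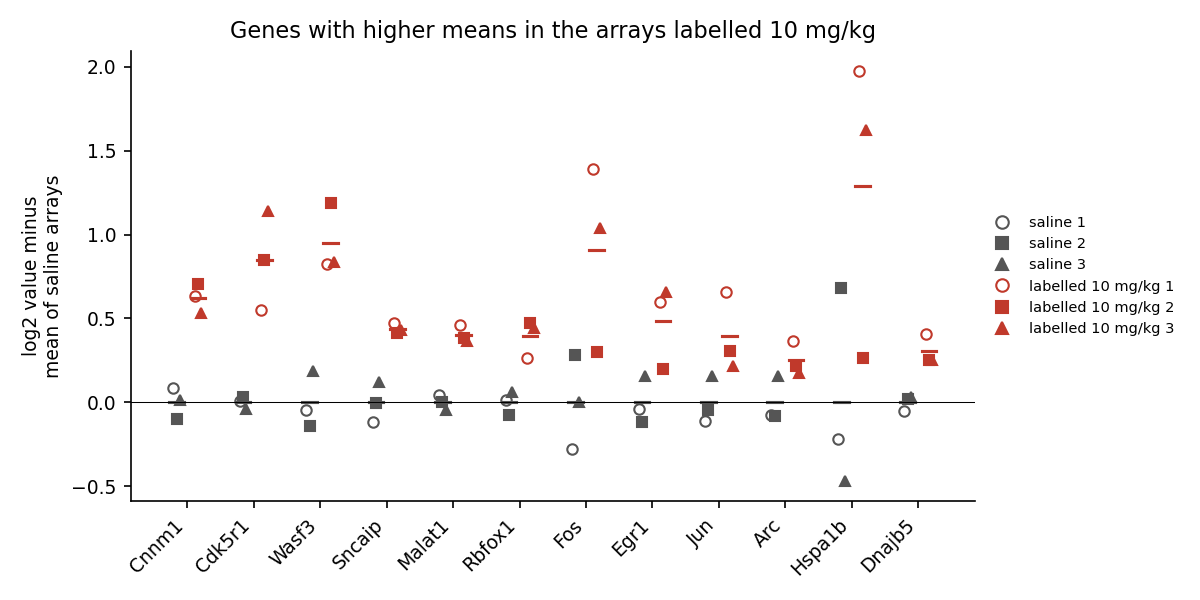
Log2 values of 12 genes with higher means under the 10 mg/kg label, relative to the mean of saline (vertical axis), in each array. Gray symbols are saline arrays, red symbols arrays labelled 10 mg/kg, open circles the arrays numbered 1 and short bars group means. Cnnm1, Cdk5r1 and Wasf3 keep apart from saline in every array, which was a condition of their choice. Fos and Hspa1b spread widely within the label, and Hspa1b overlaps with saline.

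Genes with higher levels were fewer among those that name a gene. Of the 115 probe sets called without the block, 73 name a single gene, 20 higher and 53 lower. Among the rest, which name no gene or several, 26 were higher and 16 lower. Cnnm1, a membrane protein of magnesium transport, read 6.56, 6.38 and 6.49 in saline and 7.11, 7.18 and 7.01 under the 10 mg/kg label, a difference of 0.62 (0.63 without replicate 1), with its 3 probe sets on the same side. Cdk5r1 (p35), the neuronal activator of the kinase Cdk5, read 3.48, 3.50 and 3.43 against 4.02, 4.32 and 4.61, so that its saline arrays lay at or under the highest background probe set. Its difference was 0.84 (0.96 without replicate 1), with 3 of 4 probe sets on that side. Wasf3, which controls actin branching, differed by 0.95 and Ahsa1, a co-chaperone of Hsp90, by 0.62, each with a second probe set of opposite sign (0.92 and 0.55 without replicate 1).

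Several genes were higher at low signal. Dab2, an endocytic adaptor, differed by 0.55, Fcgr2b, an inhibitory receptor for antibodies, by 0.53, Parp3, an enzyme of DNA repair, by 0.55 and Nabp1, a single-strand DNA binding protein, by 0.53, with all probe sets of each gene on the same side and levels between 4.45 and 5.57. Without replicate 1 these 4 genes differed by 0.51 to 0.54. Osmr, the oncostatin M receptor, differed by 0.71 (0.53 without replicate 1), with 2 of its 3 probe sets on that side. For Lasp1 (0.55) and Mapk8 (0.58), 1 of 9 and 2 of 4 probe sets had that sign, so the probe sets of these genes disagree. Sncaip, which binds alpha-synuclein, read 5.66, 5.77 and 5.90 in saline and 6.25, 6.19 and 6.21 in the arrays of the label (0.44, and 0.40 without replicate 1). Malat1, a nuclear noncoding RNA, differed by 0.40, Rbfox1, a neuronal splicing factor, by 0.40, and Sox11, a transcription factor of immature neurons, by 0.41, and none of these 3 overlapped with saline (0.34, 0.48 and 0.39 without replicate 1).

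Immediate-early genes, which neurons switch on within minutes of activity, had higher means in 14 of 16. Of the 16, 9 lay above saline in every array (8.75% of all genes) and 1 lay below (15.8%). By an unadjusted p of at most 0.05, 8 were higher (3.28%) and none lower. The median was 0.34. The size of the difference rested in large part on replicate 1: without it the median was 0.15 and 0 of 16 reached an unadjusted p of 0.05. Relative to saline, the mean of the 16 was 0.60, 0.15 and 0.22 in replicates 1, 2 and 3. In the saline arrays it was -0.05, -0.04 and 0.10. Fos, a subunit of the AP-1 transcription factor, read 7.76, 8.32 and 8.04 in saline and 9.43, 8.34 and 9.08 under the 10 mg/kg label. Replicate 2 lay just above saline 2, and the difference of 0.91 became 0.48 without replicate 1. Egr1 differed by 0.49 (0.36), Jun by 0.39 (0.20), Nr4a1 by 0.41 (0.26) and Arc, a synaptic protein made on activity, by 0.25 (0.18), where the values in brackets are without replicate 1.

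Heat shock proteins and chaperones also had mostly higher means, but as a list they overlapped with saline. Their mean relative to saline was 0.44, 0.04 and 0.22 in replicates 1, 2 and 3. In the saline arrays it was -0.09, 0.11 and -0.03. Of 17, 15 had higher means, 3 of them above saline in every array (8.75% of all genes). The median was 0.14 (0.04 without replicate 1). Hspa1b, the inducible Hsp70, read 8.09, 8.99 and 7.84 in saline and 10.28, 8.57 and 9.93 under the 10 mg/kg label, a difference of 1.28 (0.71 without replicate 1) with overlapping groups. Fos and Hspa1b both had their lowest value of the label in replicate 2 and their highest saline value in saline 2. These arrays share a number, and same-numbered arrays offset each other in the deposited values. Dnajb5 differed by 0.30 and Dnaja1 by 0.22, both co-chaperones of Hsp70 and both above saline in every array. Of the 3 probe sets of Dnajb5, 2 were on that side. The 16 genes of the unfolded protein response had a median of 0.06.

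Myelin genes had lower means in 15 of 21 members, and replicate 1 carried most of this. The median of the list was -0.18 and became 0.00 without replicate 1, with 10 higher and 10 lower. In that fit 2 were higher and 3 lower with an unadjusted p of at most 0.05 (2.83% and 5.98% of all genes). Relative to saline, the mean of the list was -0.41, -0.06 and -0.10 in replicates 1, 2 and 3. Mag, an adhesion protein of the innermost myelin layer, read 10.85, 10.81 and 10.47 in saline and 9.93, 10.10 and 10.23 under the 10 mg/kg label (-0.62, and -0.44 without replicate 1). Trf (transferrin, the iron carrier) differed by -0.47 (-0.37) and Cnp, a myelin nucleotidase, by -0.54 (-0.48), again with the value without replicate 1 in brackets. Mbp, a major myelin protein, overlapped with saline and differed by -0.27 (-0.07). One probe set of Opalin, a further gene of the list, overlapped as well and turned from -0.41 to 0.41 without replicate 1.

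Astrocyte and microglial genes had small median differences. Of 20 astrocyte genes 14 had lower means with a median of -0.10 (-0.08 without replicate 1). In every array, 9 of them lay below saline (15.8% of all genes). Mlc1, a membrane protein of astrocyte endfeet, stood out of this list with 9.89, 9.91 and 9.74 in saline and 9.35, 9.31 and 9.24 under the 10 mg/kg label (-0.54, and -0.53 without replicate 1), while Gfap, which reactive astrocytes make more of, differed by 0.11. The 17 genes of homeostatic microglia had a median of -0.16, which became 0.03 without replicate 1. The 22 genes of activated microglia had a median of 0.00 and the 26 inflammatory cytokines and mediators one of 0.02, with 14 higher and 11 lower. Cd68, a lysosomal protein of microglia, differed by -0.60 (-0.38 without replicate 1) and Trem2, a microglial lipid receptor that overlapped with saline, by -0.44 (-0.19). Fcrls, an Fc receptor-like gene of microglia, lay above saline in every array and differed by 0.31 (0.15), at low signal (3.74, 3.82 and 3.68 in saline).

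Single inflammatory genes lay on both sides of saline. Icam1, an adhesion molecule, read 4.47, 4.55 and 4.71 in saline and 4.21, 4.08 and 3.91 under the 10 mg/kg label (-0.51, and -0.61 without replicate 1). The chemokine Ccl5 differed by 0.38 and the complement protease C2 by 0.54 (0.31 without replicate 1), both above saline in every array. Il6, Tnf and Il1b, the classical inflammatory cytokines, differed by -0.03, 0.04 and -0.12 and had low values between 3.11 and 3.80, at or little above the highest background probe set. Ptgs2, the inducible cyclooxygenase, overlapped with saline and differed by 0.43 (0.16 without replicate 1), also at low signal (3.80, 3.58 and 3.47 in saline).

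Genes of oxidative defence, through which cells handle the quinones and peroxides that dopamine forms, had small differences. Of 24, 17 had lower means and 12 lay below saline in every array (15.8% of all genes). The median was -0.07 (-0.06 without replicate 1). Srxn1, which restores peroxiredoxins, differed by -0.45 (-0.39) with 2 of 4 probe sets on that side. Cbr3, a carbonyl reductase, stood on the other side, with 6.19, 6.24 and 6.24 in saline and 6.57, 6.53 and 6.53 in the arrays of the label (0.32, and 0.31 without replicate 1). Of 29 proteasome subunits, 19 had lower means at a median of -0.04. The 35 genes of oxidative phosphorylation had a median of -0.01, and the 31 ribosomal proteins one of 0.00.

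**Figure D3:**
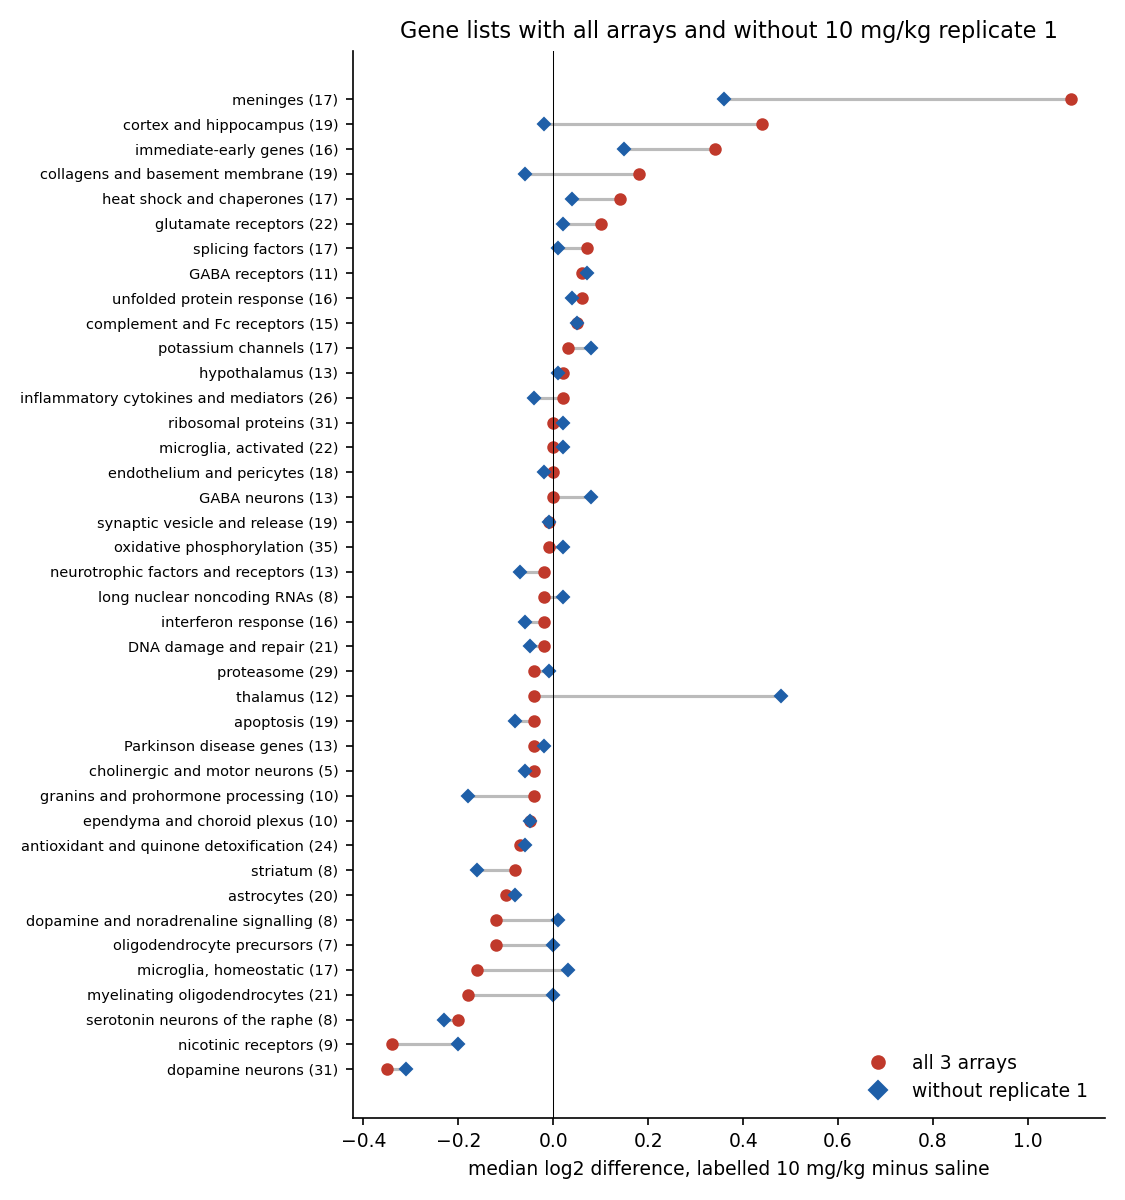
Median log2 difference between the arrays labelled 10 mg/kg and saline (horizontal axis) for each gene list of at least 5 measured genes, with the number measured in brackets. Red circles use all 3 arrays of the label and blue diamonds leave out replicate 1. Dopamine neurons (-0.35 and -0.31) keep their place, while cortex and hippocampus (0.44 and -0.02), thalamus (-0.04 and 0.48) and meninges (1.09 and 0.36) shift.

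Replicate 1 differed from its group in genes of tissues around the substantia nigra. Genes of cortex and hippocampus had a median of 0.44 over 19 genes, which became -0.02 without it. Relative to saline their mean was 1.05, 0.12 and 0.09 in replicates 1, 2 and 3. In the saline arrays it was -0.18, 0.08 and 0.10. Crym, a thyroid hormone binding protein of the forebrain, read 7.90, 4.08 and 4.27 under the 10 mg/kg label and 3.14, 4.21 and 4.23 in saline. Ddn, a dendritic protein of forebrain neurons, read 9.87, 7.82 and 7.60 against 7.10, 7.37 and 7.62. In both genes, replicate 1 alone was far above the others and saline 1 was the lowest array of all 6. Replicate 1 labelled 1 mg/kg was low as well (Crym 2.78, Ddn 6.83). Because same-numbered arrays offset each other in the deposited values, the low saline 1 is not a separate observation.

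The connective tissue of the meninges showed the same pattern more strongly, in a list of 17 genes added after the values were seen. All 17 had higher means, with a median of 1.09, and 9 lay above saline in every array (8.75% of all genes). Its genes were picked with these values known, so the counts describe the arrays and are not independent evidence. The other lists were chosen with earlier results of these data known. Relative to saline, the mean of the list was 1.96, 0.72 and 0.31 in replicates 1, 2 and 3. In the saline arrays it was -0.42, 0.23 and 0.19. Without replicate 1 the median was 0.36 with 14 higher. Ogn and Fmod, small proteoglycans of connective tissue, read 8.91, 7.16 and 5.97 and 8.22, 6.63 and 5.81 under the 10 mg/kg label, compared with 5.05, 5.83 and 6.08 and with 4.64, 5.81 and 5.55 in saline. Kcnj13, a potassium channel of epithelia, read 6.71, 5.15 and 4.52 against 3.55, 3.56 and 4.27. Collagens and basement membrane genes had a median of 0.18 over 19 genes, which turned to -0.06 without replicate 1, with Col3a1 at 8.23, 6.80 and 6.43 against 5.52, 6.61 and 6.25.

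Genes of the thalamus and hypothalamus varied between arrays of both groups. Because same-numbered arrays offset each other in the deposited values, a deviation in one group can appear with opposite sign in the other. Relative to saline, the mean of the 12 thalamic genes was -0.57, 0.64 and 0.05 in replicates 1, 2 and 3 of the label. In the saline arrays it was 0.49, -0.86 and 0.36. Their median difference was -0.04 and became 0.48 without replicate 1. The 13 hypothalamic genes, a list added after the values were seen, had a median of 0.02. Prkcd, a kinase abundant in thalamic relay neurons, read 9.76, 6.56 and 8.73 in saline and 6.92, 9.37 and 8.46 under the 10 mg/kg label. Pmch, the precursor of melanin-concentrating hormone of the lateral hypothalamus, read 11.58, 6.86 and 7.75 in saline and 5.85, 10.95 and 11.63 in the arrays of the label, so that each group held both very high and low arrays. Its difference was 0.75, and 3.46 without replicate 1.

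Among genes of the serotonin neurons of the raphe, Tph2 and Slc6a4 had lower means with and without replicate 1. The list as a whole was divided, with 5 of 8 measured genes lower and 3 higher, at a median of -0.20 (-0.23 without replicate 1). Of the 8, 3 were lower with an unadjusted p of at most 0.05 (6.95% of all genes). In every array, 1 lay below saline (15.8%) and 1 above (8.75%). Tph2, the enzyme of serotonin synthesis in neurons, read 4.24, 7.47 and 6.96 in saline and 5.21, 3.61 and 3.32 under the 10 mg/kg label. Slc6a4, the serotonin transporter, read 4.07, 6.44 and 5.55 against 4.31, 3.38 and 3.56. In both genes saline 1 lay among the arrays of the label, so the groups overlapped, with differences of -2.18 and -1.60 and, without replicate 1, -3.16 and -2.11. When all 3 arrays numbered 1 were left out, which was chosen after seeing the data, Tph2 passed limma's test at -3.75 (adjusted p = 0.01851). Along with it passed a probe set of Tmie, a hair cell protein (2.84), and a probe set of Hba-a1, an alpha globin (2.53). The dopamine neuron list differed by -0.31 in that setting.

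**Figure D4:**
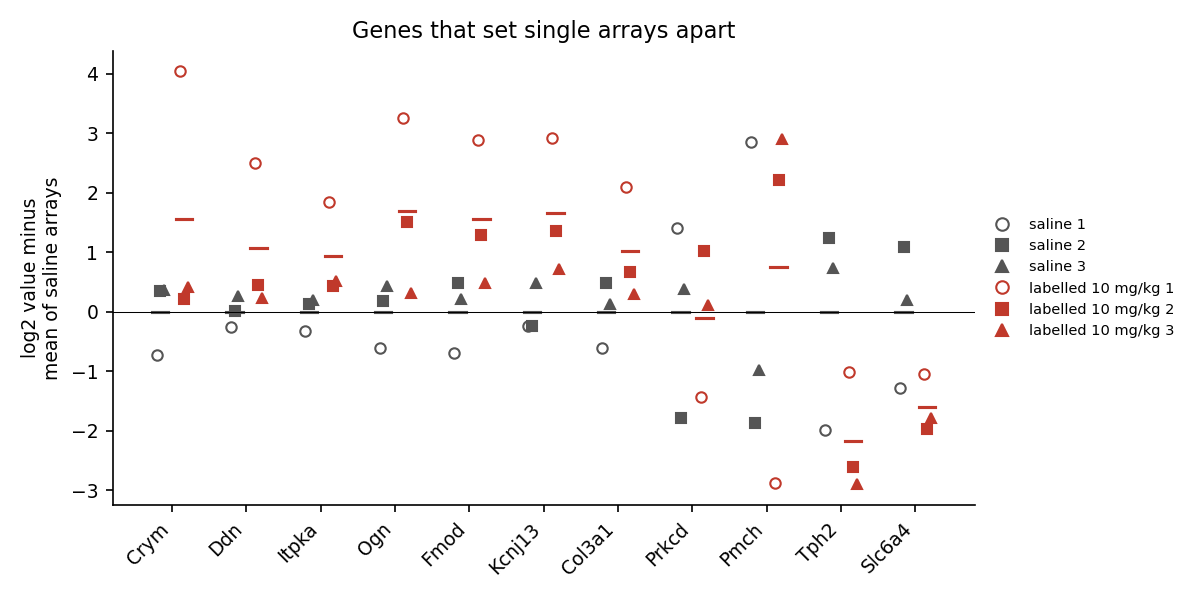
Log2 values of 11 genes with large differences between arrays of one group, relative to the mean of saline (vertical axis), in each array. Gray symbols are saline arrays, red symbols arrays labelled 10 mg/kg, open circles the arrays numbered 1 and short bars group means. Replicate 1 is the highest array for Crym, Ddn, Itpka, Ogn, Fmod, Kcnj13 and Col3a1 and the lowest for Pmch, while Tph2 and Slc6a4 are lowest in replicates 2 and 3.

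Controls of the assay also set the groups apart. The 3′ probe set of Actb exceeded its 5′ probe set by 0.88, 0.92 and 0.93 in the saline arrays and by 1.10, 1.03 and 1.12 under the 10 mg/kg label, a difference that grows as RNA degrades (exact two-sided permutation p = 0.1, the smallest that 3 arrays against 3 allow). That of Gapdh overlapped, at 0.23, 0.25 and 0.39 against 0.37, 0.28 and 0.31 (exact two-sided permutation p = 0.6). The 4 bacterial transcripts that are added to the RNA before labelling had a mean of 5.74, 5.46 and 5.91 in saline and 6.25, 6.01 and 6.50 in the arrays of the label, 0.55 higher and without overlap (exact two-sided permutation p = 0.1). The controls that are added at hybridization overlapped, with a difference of 0.06. The part of RNA quality, of the amount of RNA labelled and of the neighbouring tissue in the differences above was not tested, and with each group in 3 arrays the first 2 cannot be told apart from the treatment.

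**Figure D5:**
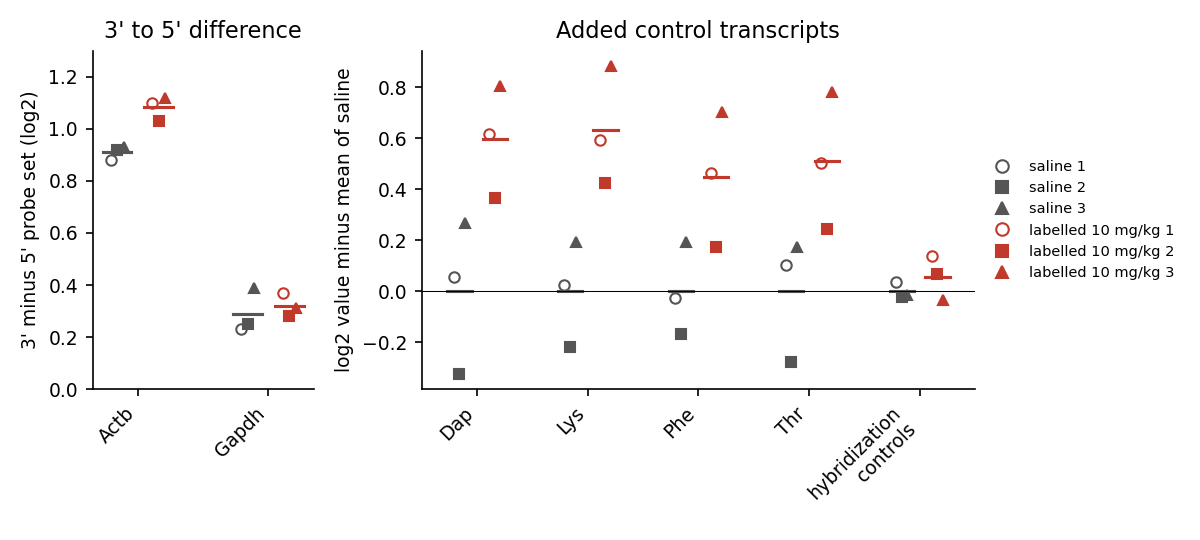
Control probe sets in each array. The left panel shows the 3′ minus 5′ difference of Actb and Gapdh on the log2 scale, and the right panel the bacterial transcripts added before labelling (Dap, Lys, Phe, Thr) and the hybridization controls, as log2 values minus the mean of the saline arrays. Gray symbols are saline arrays, red symbols arrays labelled 10 mg/kg, open circles the arrays numbered 1 and short bars group means. The arrays of the label lie above all saline arrays for Actb, Dap, Lys and Thr and overlap with saline for Gapdh, Phe and the hybridization controls.

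No gene could be called particular to the higher label when its arrays were set against those labelled 1 mg/kg. In limma, 0 of 45037 probe sets passed that comparison with the block (smallest adjusted p = 0.7741) or without it (0.05424), and 2879 (6.39%) reached an unadjusted p of 0.05. The arrays labelled 1 mg/kg share the saline arrays, and their own differences from saline were -0.66 for Th, -0.84 for Gch1 and -1.40 for Gucy2c, beside -0.57, -0.61 and -0.99 for the arrays labelled 10 mg/kg. Between the 2 labels, Th differed by 0.09, Gch1 by 0.22 and Gucy2c by 0.41 (10 minus 1 mg/kg, adjusted p = 0.7741 to 0.8706 by limma). Fos differed by 0.74, Arc by 0.50, Mlc1 by -0.31 and Armc9, a protein of the primary cilium, by -0.60 (adjusted p = 0.7741 each). Armc9 read 5.75, 5.69 and 5.69 in saline and 5.19, 5.27 and 5.25 under the 10 mg/kg label, with 5 of its 7 probe sets on that side, and the arrays labelled 1 mg/kg differed from saline by 0.12.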

How the data were processed

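RNA of the substantia nigra was measured on 9 arrays, 3 per label. The authors made the deposited log2 values with Robust Multichip Average (version not given in the sources used here), which corrects background, normalizes quantiles and summarizes probe sets, and their methods name ComBat on the 3 replicates. In the deposited log2 values the means of the replicate numbers had been brought together: the median F of the replicate number was 0.07302, compared with 0.8284 with no replicate effect, and 96.4% of probe sets lay below the latter. A fit without the number then counts degrees of freedom already used, so it was kept as a block. Deviations of same-numbered arrays correlated between -0.6256 and -0.132.

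Of 45141 probe sets, 104 controls were left out. Symbols came from the platform annotation (28898 probe sets with 1 gene, 551 with several, 15588 with none). The fit used limma 3.58.1 in R 4.3.3 (lmFit, eBayes) on all 9 arrays, Benjamini-Hochberg over 45037 probe sets and a threshold of 0.05, and was tested on simulated data. Lists were not tested. Each gene stands in them by its brightest probe set, and a mean counts as higher or lower where it differs from 0 at 2 decimals. Members, lists (744 genes, 640 measured) and the rule for named genes were chosen with earlier results of these data known. The rule took the 15 genes per direction with the smallest p whose groups did not overlap, the 10 per direction with the largest difference among calls without the block, genes measured by qPCR, up to 4 per list with the smallest p, and the 10 per direction in which replicate 1 lay farthest from the other arrays. The text prints a choice of these, and other list members to show the range. Alternatives were the block, the arrays fitted, array weights, an intensity trend with robust fitting, normalization, centring, the brighter probe sets, the threshold, arrays left out and, for the lists, averaging over all probe sets of each gene. The number of arrays limits the precision.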

Additional observations from a re-analysis of the deposited data

How the results depend on the processing

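With the replicate block, 0 probe sets also passed when only the 6 arrays were fitted, with array weights, a second quantile normalization, centring, the brighter probe sets or a threshold of 0.1. Without the replicate block 115 passed, and 7955 had an unadjusted p of 0.05 or less. With an intensity trend and the robust option 1 passed, unnamed and higher (1.35), and with single arrays left out 0 to 1 passed (1 without saline 2), with 3225 to 4556 at an unadjusted p of 0.05 or less. Without the block and with a further array left out, 0 passed without replicate 1 or 3 of the label or saline 2, and 1 without replicate 2 of the label (7314 at an unadjusted p of 0.05 or less), saline 1 or saline 3 (6741); without saline 2 the unadjusted count was 6832. Leaving out the 3 arrays numbered 1 gave 3 calls. Among the brighter probe sets 2343 of 22518 had an unadjusted p of 0.05 or less, where fewer were tested. Centring on array medians moved the share with lower means from 52.3% to 56.8%. Alternatives without saline 1 or replicate 1 alone leave the mirrored array in place. Such mirroring goes with replicate numbers whose means were brought together, and the step that did so was not tested.

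Of 99 genes followed, 93 kept their sign in every alternative run, which were 20 for 81 genes, while 18 genes were not among the brighter probe sets. Crym ranged from -0.08 to 2.43 with 1 array left out, and was -0.04 without the arrays numbered 1. Prkcd ranged from -1.38 to 0.94, was 1.27 without the arrays numbered 1, and was 0.57, 0.60 and 0.09 with no block and without replicate 1 of the label, saline 1 or saline 3. Pmch ranged from -0.93 to 3.46, and was -0.33 and -0.19 with no block and without replicate 3 of the label or saline 2. Bdnf ranged from -0.32 to 0.56, and was -0.27 without the arrays numbered 1 and -0.10 with no block and without replicate 1. Il6 ranged from -0.11 to 0.06 (0.03 with no block and without replicate 3), and Tnf from -0.03 to 0.09 (-0.01 with no block and without replicate 2), both at low signal.

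Of 43 list medians, 28 moved by more than the SD of the list between the arrays of the label in at least 1 alternative, 17 without replicate 1 and 8 where each gene stood by the mean of its probe sets. In the latter, dopamine neurons had a median of -0.34, immediate-early genes 0.30, myelin genes -0.21, cortex and hippocampus 0.33 and nicotinic receptors -0.13.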
